A study of Mus musculus with 2 samples.

Results

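Differentiated suprabasal keratinocytes are the epidermal cells that have left the basal layer and are building the barrier. They were taken from single-cell libraries of healed large wounds by their UMI counts (unique molecular identifiers, each standing for 1 captured RNA molecule). A cell was a member when it held at least 2000 UMIs with at most 15% on mitochondrial genes, had at least 30 UMIs over Krt1, Krt10 and Krtdap together, and had at least as many UMIs of Krt1 and Krt10 as of the basal keratins Krt5 and Krt14. Cells with Krt79 at 3 UMIs or more, over 2 UMIs of the cycling genes Mki67 and Top2a, 5 or more of Elovl3, Fa2h and Far2, any Ptprc, or 20 or more of Col1a1 and Col1a2 were left out. Of 26551 cell barcodes in both libraries, 21232 passed the depth and mitochondrial limits and 553 were members: 152 of 9691 cells in WT_LW and 401 of 11541 cells in TLR9agonist_LW. These cells were chosen by their measured UMI counts, so the levels of the genes just named are described but are no finding.

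The epidermis renews itself from dividing basal cells that carry Krt5 and Krt14. As cells move up they switch to Krt1 and Krt10 (spinous layer), then make filaggrin, loricrin and other granular layer proteins, and finally cross-link these proteins beneath the plasma membrane into the cornified envelope. In injured or inflamed epidermis the suprabasal cells are known to make another set of products, among them the wound keratins, the small proline-rich (Sprr) proteins and the calprotectin subunits S100a8 and S100a9.

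Both groups were wild-type male C57BL/6J mice, 6 to 8 weeks old, with a circular wound of 1.8 cm across the dorsal skin. In WT_LW the wound received PBS according to the labels, but the study's text also names a control oligonucleotide, and these files do not settle which was given. In TLR9agonist_LW it received ODN2395, a CpG oligonucleotide that activates Toll-like receptor 9 (TLR9), on days 0, 3 and 6. Tissue of several mice per group was pooled 2 days after the scab came off and made into 1 library per group by droplet-based sequencing of the 3′ ends of transcripts. The comparison asks how suprabasal cells of wounds given the agonist differed from those of control wounds. With 1 library per group there is no replicate check and no test, and the treatment cannot be told apart from differences between the pools or the preparations. All intervals here are 95% intervals that cover counting error only.

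The member cells held 2745163 UMIs in WT_LW and 8412401 UMIs in TLR9agonist_LW. Their median depth was 10309.5 UMIs per cell in WT_LW (range 2015 to 80001) and 21760 in TLR9agonist_LW (range 2050 to 62097). Mitochondrial genes took 3.23% and 2.78% of their UMIs and ribosomal protein genes 28.8% and 34.0%. Levels are given as UMIs per 1000000 UMIs of the member cells of a library (CPM), and the floor of 3 UMIs equals 1.09 CPM in WT_LW and 0.357 CPM in TLR9agonist_LW. Because the reads come from transcript ends, CPM does not scale with transcript length. A log2 ratio is TLR9agonist_LW over WT_LW throughout. Shares of cells with at least 1 UMI of a gene were read after each cell was thinned to 2000 UMIs, since the depths differ. Free RNA in the droplets gives such UMIs to all cells, and its level was read in T cells (2164 and 1885 cells, median depths 4895 and 5135 UMIs) and in endothelial cells (574 and 457 cells, median depths 7004 and 9318 UMIs) thinned in the same way.

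Member cells were 1.57% of the cells in WT_LW (95% interval 1.33 to 1.84) and 3.47% in TLR9agonist_LW (3.15 to 3.82). These shares depend on how epidermis and dermis were recovered and carry no test. The median sum of Krt1, Krt10 and Krtdap was 513.5 UMIs per cell in WT_LW and 478 in TLR9agonist_LW, far above the limit of 30. Only 8 and 2 members lay at 30 to 39 UMIs, and 2 and 3 further cells that met every other condition lay at 20 to 29. The 2 listed markers that the gate did not use were read in members and in T cells. A comparison with T cells cannot tell suprabasal from basal keratinocytes. Lypd3, a membrane-anchored protein of suprabasal cells, was found in 57.9% of thinned WT_LW members and 83.0% of thinned TLR9agonist_LW members, against 1.48% and 6.90% of T cells. Dsc1, the desmocollin of upper epidermal layers, was found in 23.0% and 20.2% of members, against 0.0924% and 0.531% of T cells. Its level was 143.5 CPM in WT_LW and 91.4 CPM in TLR9agonist_LW members, against 8.76 and 19.1 CPM in the basal keratinocytes described below.

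Genes of other cell types were also present. The 6 fibroblast genes summed to 1190 CPM in WT_LW and 1376 CPM in TLR9agonist_LW, with more than 3 UMIs in 98.7% and 100% of members. The 8 myeloid genes summed to 425.8 and 247.5 CPM, with more than 3 UMIs in 71.7% and 47.1% of members. Endothelial genes summed to 84.5 and 28.3 CPM, but only 2 members of each library held more than 3 of these UMIs and 1 WT_LW cell held 141. T cell genes summed to 46.6 and 44.5 CPM, with more than 3 UMIs in 1 and 11 members and at most 4 and 28 UMIs in a cell. Pericyte genes summed to 45.5 and 27.9 CPM, Schwann cell and melanocyte genes to 45.2 and 8.68 CPM and mast cell genes to 52.8 and 45.6 CPM. Hair shaft and inner root sheath genes were at 1 and 6 UMIs in all, with 4 and 3 of the 5 genes at 0. The 6 sebaceous and upper follicle genes, of which the gate limited some, summed to 147 and 93.7 CPM, with more than 3 UMIs in 25.7% and 16.7% of members and 1 and 2 genes at 0. The part of these genes in the results below was not tested, except where a value without the cells or without the free RNA is given.

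Of 4287 genes with at least 200 UMIs over both libraries, 234 (5.46%) were at least 2-fold higher and 255 (5.95%) at least 2-fold lower in TLR9agonist_LW. Lists of related genes were read among the 7994 genes with at least 50 UMIs, of which 359 (4.49%) were higher and 1006 (12.6%) lower by that size. In the text, "higher" and "lower" counts mean a difference of at least 2-fold. The split depends on the scaling. The median log2 ratio was -0.26 over the genes with at least 200 UMIs and -0.38 over those with at least 50. Putting the median gene at 0 adds 0.26 to each log2 ratio and gives 342 higher and 94 lower genes, and the trimmed mean of M values (TMM) adds 0.47 and gives 481 higher and 51 lower. A log2 ratio between -0.47 and 0 therefore has no settled direction and none is given for it.

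The most abundant transcripts of the members were those of keratinocytes in both libraries. Lgals7, which encodes the epithelial galectin-7, stood at 20864 CPM in WT_LW against 25524 CPM in TLR9agonist_LW. Fabp5, the epidermal fatty acid-binding protein, stood at 25114 and 20482 CPM, and the stefin-like gene BC100530 at 15723 and 18274 CPM. These 3 genes differed little, with log2 ratios of 0.29, -0.29 and 0.22. The gate genes Krt1 (21078 and 10785 CPM) and Krt10 (17975 and 10642 CPM) had log2 ratios of -0.97 and -0.76, while Krtdap stood at 6306 and 5721 CPM. Calm4, a calmodulin-like protein of differentiating keratinocytes, was lower in TLR9agonist_LW at 9851 and 4964 CPM (log2 ratio -0.99, 95% interval -1.01 to -0.97). Of the list of 20 measured spinous and cell surface genes, 1 was higher and 2 were lower (background 4.49% and 12.6%). Their median log2 ratio was -0.31 and turns to 0.16 under TMM.

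**Figure D1:**
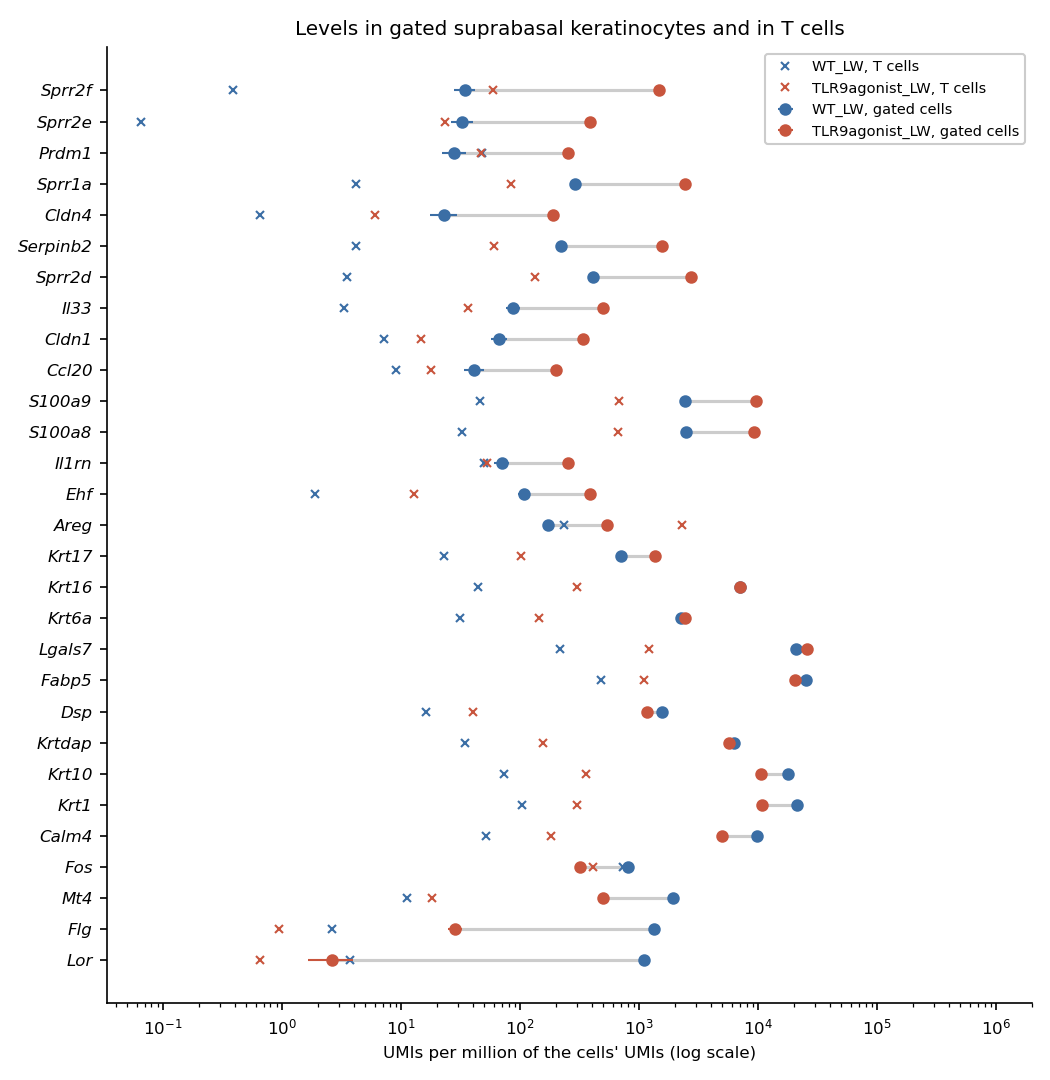
Levels of named genes in the suprabasal members (CPM, logarithmic axis), 1 point per library with its 95% counting interval, and crosses for the level in T cells of the same library. Lgals7, Fabp5, Krt1 and Krt10 lie furthest to the right in both libraries, the Sprr genes lie far apart with TLR9agonist_LW on the right, and Lor and Flg lie far apart with WT_LW on the right.

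The small proline-rich proteins were the list that stood furthest above the other genes in TLR9agonist_LW. They are short, glutamine- and proline-rich precursors that transglutaminases cross-link into the cornified envelope. Of 12 measured genes 8 were higher and 1 was lower (background 4.49% and 12.6%). Their median log2 ratio was 2.56, against -0.38 for all genes with at least 50 UMIs. Their UMIs summed to 2214 CPM in WT_LW and 9932 CPM in TLR9agonist_LW.

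Sprr2f was the gene with the highest ratio by the interval end nearest 0. It had 94 and 12248 UMIs, 34.2 CPM in WT_LW against 1456 CPM in TLR9agonist_LW (log2 ratio 5.41, 95% interval 5.12 to 5.72), and thinned cells with it made up 3.95% of WT_LW and 56.9% of TLR9agonist_LW members. Sprr2d had the most UMIs of the family in TLR9agonist_LW, with 408 CPM in WT_LW against 2712 CPM in TLR9agonist_LW (log2 ratio 2.73, 95% interval 2.64 to 2.82). Sprr1a stood at 288 CPM in WT_LW against 2416 CPM in TLR9agonist_LW (log2 ratio 3.07, 95% interval 2.97 to 3.17). These are broad differences among the cells, since Sprr2d was found in 24.3% and 81.0% of thinned WT_LW and TLR9agonist_LW members and Sprr1a in 19.1% and 82.5%. T cells held much less, with Sprr2d in 0.924% and 28.7% and Sprr1a in 0.601% and 19.0%. Taking the mean UMIs per T cell of the library off each member left log2 ratios of 5.40 for Sprr2f, 2.71 for Sprr2d and 3.06 for Sprr1a.

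Sprr2e (32.8 and 390.5 CPM, log2 ratio 3.57), Sprr2h (69.6 and 452 CPM, log2 ratio 2.70) and Sprr2i (75.4 and 404 CPM, log2 ratio 2.42) followed the same pattern, as did Sprr2k and Sprr2j-ps, named as a pseudogene, at low counts. Sprr1b, already abundant in WT_LW at 965 CPM, stood at 1743 CPM in TLR9agonist_LW (log2 ratio 0.85). Sprr2a3 was at 254 and 197 CPM (log2 ratio -0.36, -0.49 to -0.23). Sprr2b was the exception with 145 and 131 UMIs and a log2 ratio of -1.76, but the 3% of cells with the most Sprr2b held 97.2% of the WT_LW UMIs and without them the ratio was 0.57. Members of the Sprr2 group are near copies of each other, and how the counting split their reads is not known, so the values of single Sprr2 genes are uncertain while their sum is less so.

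The 150 bases before the start of Sprr1a, Sprr2d, Sprr2f and Lor are shown because these genes lie in the same cluster on mouse chromosome 3 and stood at opposite ends of the comparison. The sequences are those of RefSeq (GRCm38.p6), written 5′ to 3′ on the gene's strand, at chr3:92485882-92486031 (minus strand) for Sprr1a, chr3:92338990-92339139 (plus strand) for Sprr2d, chr3:92365037-92365186 (plus strand) for Sprr2f and chr3:92083143-92083292 (minus strand) for Lor. Capitals mark matches to TGANTCA, the core of AP-1 sites, and to TATAAA, the TATA box, searched on both strands; the 2 motifs do not overlap here.
Sprr1a: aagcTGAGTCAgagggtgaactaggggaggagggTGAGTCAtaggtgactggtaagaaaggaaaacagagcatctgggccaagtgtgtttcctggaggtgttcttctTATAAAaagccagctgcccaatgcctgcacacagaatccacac
Sprr2d: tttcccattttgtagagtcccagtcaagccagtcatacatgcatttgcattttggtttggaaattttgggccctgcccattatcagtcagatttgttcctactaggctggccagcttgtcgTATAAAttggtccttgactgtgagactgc
Sprr2f: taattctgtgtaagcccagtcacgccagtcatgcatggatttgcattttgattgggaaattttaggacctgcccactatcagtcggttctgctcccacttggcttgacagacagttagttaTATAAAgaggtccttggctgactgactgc
Lor: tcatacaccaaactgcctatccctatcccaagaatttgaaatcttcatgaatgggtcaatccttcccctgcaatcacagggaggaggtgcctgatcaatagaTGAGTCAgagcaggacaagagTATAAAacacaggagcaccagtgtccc

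Sprr1a held 2 AP-1 matches, beginning 146 and 116 bases before its start, and Lor held 1, beginning 48 bases before. The windows of Sprr2d and Sprr2f held none of these letters. Each of the 4 windows held 1 TATAAA, at 43, 29, 29 and 27 bases before the start in the order shown. Among 32475 RefSeq windows of the same length, 4.23% held TGANTCA and 7.55% held TATAAA. Sprr2d and Sprr2f shared 76.0% of the positions of their aligned windows and Sprr2d and Sprr2e 90.7%, whereas Sprr2d shared 46.6% with Sprr1a and 48.5% with Lor. A match of letters is a description of the sequence and not a bound site, and the part of these motifs in the ratios was not tested.

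Calprotectin was the second broad difference. S100a9 stood at 2442 CPM in WT_LW against 9628 CPM in TLR9agonist_LW (log2 ratio 1.98, 95% interval 1.94 to 2.02) and its partner S100a8 at 2494 and 9246 CPM (log2 ratio 1.89, 1.85 to 1.93). In thinned cells the median was 0 UMIs of S100a9 in WT_LW and 12 in TLR9agonist_LW, and 44.7% and 96.0% of the cells held at least 1. Free S100a9 RNA was high in TLR9agonist_LW, where 74.5% of T cells held a UMI against 6.33% in WT_LW, so the share alone is a poor guide. The level in T cells was 684 CPM in TLR9agonist_LW, well under that of members, and with T cell free RNA taken off the log2 ratio was 1.95.

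Among 16 measured alarmins and antimicrobial proteins 8 were higher and 2 lower (background 4.49% and 12.6%), with a median log2 ratio of 0.97. The beta-defensin Defb6 stood at 43.0 CPM in WT_LW against 268 CPM in TLR9agonist_LW (log2 ratio 2.64, 95% interval 2.37 to 2.92). Slpi, a secreted inhibitor of leukocyte proteases, was at 59.0 and 199 CPM (log2 ratio 1.75) and Lcn2, which binds bacterial siderophores, at 7.65 and 47.0 CPM (log2 ratio 2.62). Defb14 rested on 4 and 151 UMIs. The epithelial S100 genes S100a10, S100a11 and S100a14 had log2 ratios from -0.10 to 0.33, and S100a13 one of -0.25. S100a16 stood lower, at 776 CPM in WT_LW against 457 CPM in TLR9agonist_LW (log2 ratio -0.76, 95% interval -0.84 to -0.69). S100a6 (733 and 265 CPM, log2 ratio -1.47) was lower, though 92.4% and 91.7% of T cells held it, more than the 57.9% and 34.4% of members, so that T cells give no level of free RNA for it and its part was not tested. Wfdc12 was lower with 108 and 38 UMIs.

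**Figure D2:**
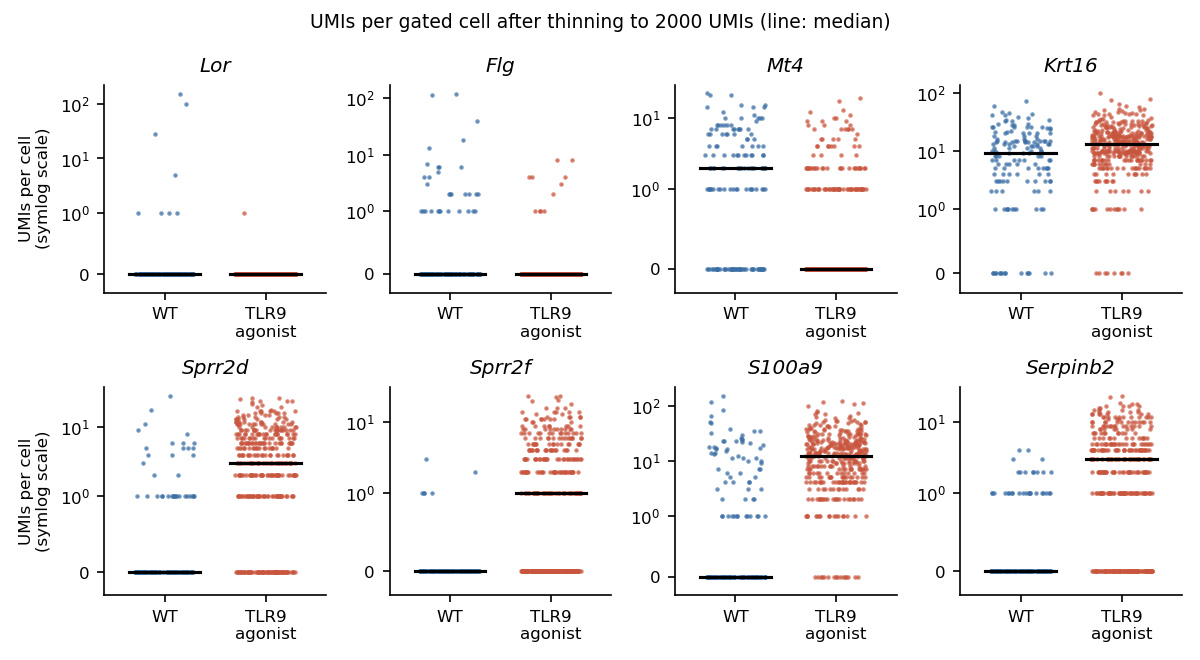
UMIs per member cell of 8 genes after thinning to 2000 UMIs (symmetric logarithmic axis), 1 point per cell, with a line at the median of each library. The medians of Sprr2d, S100a9 and Serpinb2 are 0 in WT_LW and 3, 12 and 3 in TLR9agonist_LW, that of Mt4 is 2 and 0, and Lor reaches 152 UMIs in a WT_LW cell while nearly all other cells hold none.

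The granular layer genes lay on the opposite side, but they rested on very few cells. Lor, the major protein of the cornified envelope, had 3046 and 22 UMIs (1109.6 and 2.62 CPM, log2 ratio -8.73, 95% interval -9.41 to -8.13). Flg, the source of filaggrin, had 3671 and 239 UMIs (1337 and 28.4 CPM, log2 ratio -5.56, 95% interval -5.75 to -5.37). Hrnr, a further protein of the filaggrin family, had 435 and 2 UMIs (log2 ratio -9.38, -12.43 to -7.52), and the small secreted protein gene Wfdc21 401 and 2 UMIs (log2 ratio -9.26, -12.31 to -7.40). In WT_LW 18 cells had any Lor and the highest cells held 1575, 1374 and 65 UMIs, so that 2 cells carried 96.8% of Lor, 92.2% of Hrnr, 99.3% of Wfdc21, 79.6% of Flg and all 115 UMIs of Flg2. In TLR9agonist_LW 19 cells had Lor, with 4 UMIs at most.

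These 2 WT_LW cells had 31835 and 18792 UMIs and a keratin share (Krt1 and Krt10 over these and Krt5 and Krt14) of 0.999 and 0.95. The first held 1048 UMIs of Krt1 and 1075 of Krt10, the second only 10 and 9, so its share rests on few UMIs. Without them the log2 ratio of Lor was -3.78 (-4.52 to -3.10), that of Flg -3.29 (-3.51 to -3.08) and that of Hrnr -5.73 (-8.83 to -3.77), and for Wfdc21 3 WT_LW UMIs were left. The direction of Lor, Flg and Hrnr therefore remained and its size did not. Of the WT_LW UMIs left, 1 cell held 65 of 97 for Lor, 1 cell 22 of 34 for Hrnr and 1 cell 311 of 750 for Flg. The ratios of Lor and Hrnr thus still rested largely on 1 cell each and that of Flg in part, which the counting intervals do not cover. Flg was the gene of this group seen in the most cells, with thinned shares of 21.1% in WT_LW and 2.74% in TLR9agonist_LW against 0.462% and 0.0531% of T cells. Cdsn, the corneodesmosome protein corneodesmosin, had 111 and 5 UMIs, and the 3% of WT_LW cells with the most Cdsn held all of them.

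Of the 26 measured cornified envelope and granular layer genes 5 were higher and 10 lower (background 4.49% and 12.6%). Their median log2 ratio was -0.54. With the 3% of cells highest in each gene left out (5 WT_LW and 12 TLR9agonist_LW cells), 21 of the 26 genes had UMIs left. Of these 8 were higher and 3 lower, against 517 and 1175 of all 7994 genes. Their median was -0.27, a value whose sign TMM turns. The 5 higher genes were the late cornified envelope genes Lce3a, Lce3c, Lce3d, Lce3e and Lce3f, of which Lce3d had 8 and 750 UMIs (log2 ratio 4.94, 95% interval 3.95 to 6.15), Lce3f 12 and 749 UMIs and Lce3c 14 and 724 UMIs. They too were held by few cells: 52 TLR9agonist_LW cells had Lce3d, and the top 3% of cells held 82.0% of it. Crct1, a cysteine-rich gene between the Lce genes and Flg, stood at 574 and 489.8 CPM (log2 ratio -0.23), but 99.6% of its WT_LW UMIs lay in the top 3% of cells and without these its log2 ratio was 6.19. In thinned cells it was found in 3.95% and 22.7%.

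Other envelope genes differed by less than 2-fold. Ivl, encoding involucrin, stood at 43.7 CPM in WT_LW against 55.2 CPM in TLR9agonist_LW (log2 ratio 0.34, and 1.76 without the top 3% of cells, which held 83.3% of its WT_LW UMIs), Tgm1, the membrane transglutaminase that cross-links the envelope, at 47.4 and 90.2 CPM (log2 ratio 0.93), and Tgm3 at 139 and 121 CPM. The plakins Ppl (180.3 and 90.6 CPM, log2 ratio -0.99) and Evpl (126 and 87.0 CPM, log2 ratio -0.53), which link the envelope to keratin filaments, had lower levels in TLR9agonist_LW, as did Casp14, the caspase that helps to process filaggrin (158 and 89.4 CPM, log2 ratio -0.82). Asprv1, a protease that cuts filaggrin precursor, was at 684 and 622 CPM, with 75.2% of the WT_LW UMIs in the top 3% of cells.

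Most of these genes lie together in the epidermal differentiation complex of chromosome 3. Between S100a1 and S100a10 the GENCODE annotation holds 75 protein-coding genes, of which 41 had at least 50 UMIs in the members. Of these 17 were higher and 10 lower (background 4.49% and 12.6%), with a median log2 ratio of 0.34. Without the top 3% of cells 37 had UMIs left, of which 21 were higher and 5 lower. The same step gave 517 higher and 1175 lower among all 7994 genes. Sprr2k, Lce3c, Lce3d, Lce3e and Lce3f were among the 21 with no WT_LW UMIs left. The complex took 1.63% of the members' UMIs in WT_LW and 3.53% in TLR9agonist_LW. Along the chromosome, genes with opposite ratios were neighbours: Lor lay between the S100 genes and the Sprr genes, and Flg and Hrnr lay beyond the Lce genes.

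**Figure D3:**
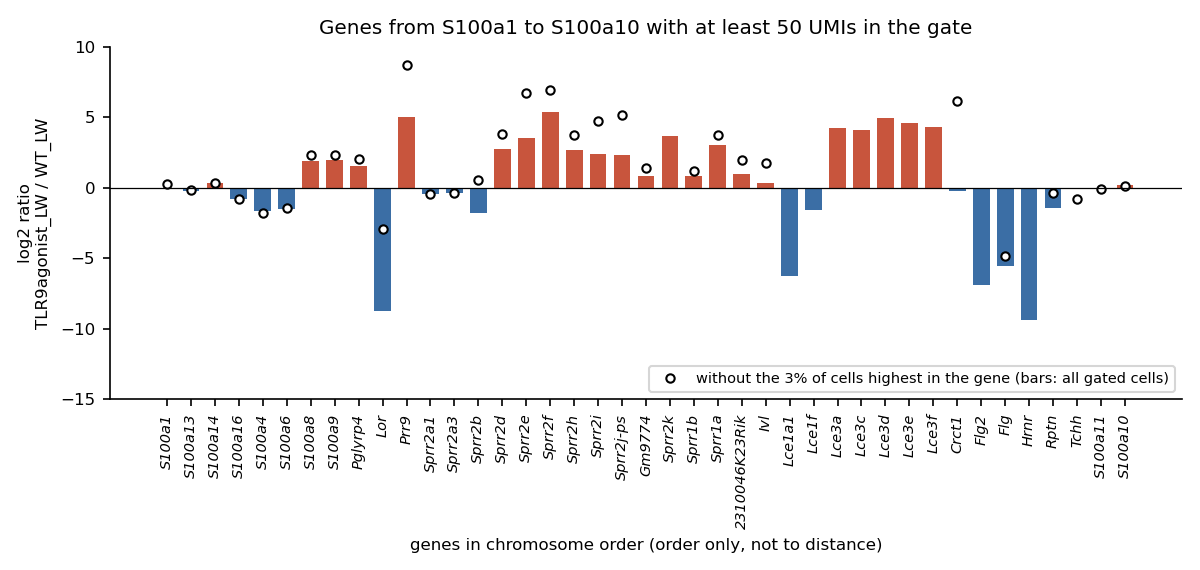
Log2 ratios of the 41 measured genes from S100a1 to S100a10 in chromosome order (bars, red above 0 and blue below), with open circles for the ratio without the 3% of cells highest in the gene, drawn where both libraries still held UMIs. The Sprr2 and Lce3 genes form runs of high bars, Lor (-8.73) and Hrnr (-9.38) reach furthest down, and the circle of Crct1 (6.19) is far from its bar (-0.23).

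Of 30 measured transcription factors of keratinocyte differentiation 8 were higher and 4 lower (background 4.49% and 12.6%), with a median log2 ratio of 0.47. Prdm1 (Blimp1), which acts in terminal differentiation, was at 28.0 CPM in WT_LW against 253 CPM in TLR9agonist_LW (log2 ratio 3.17, 95% interval 2.85 to 3.52). The epithelial ETS factors Ehf (107 and 386 CPM, log2 ratio 1.84) and Elf3 (21.9 and 76.9 CPM, log2 ratio 1.82) and Grhl3, a grainyhead factor of barrier formation (40.4 and 132 CPM, log2 ratio 1.70), were all higher. Ehf was found in 9.87% and 53.9% of thinned members, against 0.370% and 2.86% of T cells. Gata3 (80.1 and 204 CPM) had a log2 ratio of 1.35, and Hopx one of 1.37, but 47.4% of T cells held Hopx.

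Other factors had lower levels in TLR9agonist_LW. The homeobox factor Barx2 (109.6 and 43.5 CPM, log2 ratio -1.33) and the POU factor Pou2f3 (29.1 and 14 CPM, log2 ratio -1.05) were lower, and Maf was at 229.9 and 109 CPM, with about as many T cells as members holding it. Klf4, Cebpa and Zfp750, required for late differentiation, had log2 ratios of 0.44, 0.53 and 0.64, Grhl1 one of -0.04, and Trp63, the master regulator of the basal state, one of -0.66. Bhlhe40 was at 148 and 211 CPM, and more T cells than members held it.

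Of 23 measured cell junction genes 4 were higher and 2 lower (background 4.49% and 12.6%), with a median log2 ratio of -0.21 that TMM turns positive. Of the tight junction genes named here, Cldn4 stood at 22.9 CPM in WT_LW against 189 CPM in TLR9agonist_LW (log2 ratio 3.05, 95% interval 2.68 to 3.43), Cldn1 at 66.7 and 336 CPM (log2 ratio 2.33) and Ocln, rare in both, at 5 and 151 UMIs. The connexin gene Gjb2 was at 285 and 438 CPM (log2 ratio 0.62) and Gjb5 at 54.6 and 17.2 CPM (log2 ratio -1.66). The desmosomal cadherin Dsg3, usually strongest in lower layers, was higher (32.1 and 90.7 CPM, log2 ratio 1.5). The abundant desmosomal genes Dsp (1547 and 1170.2 CPM) and Jup (757 and 643 CPM) differed by less than 2-fold, with log2 ratios of -0.40 and -0.23.

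The wound keratins, made by keratinocytes at wound edges, were abundant in both libraries and 0 of 4 differed by 2-fold. Krt16 stood at 7067 CPM in WT_LW against 7071 CPM in TLR9agonist_LW (log2 ratio 0.00, 95% interval -0.02 to 0.02), Krt6a at 2252 and 2414 CPM and Krt6b at 2443 and 2213 CPM (log2 ratios 0.10 and -0.14). Krt17 was at 699.8 and 1354 CPM (log2 ratio 0.95), and at 1.92 without the top 3% of cells, which held 62.6% of its WT_LW UMIs. Krt16 was found in 90.1% and 98.0% of thinned members, with a median of 9 UMIs per cell in WT_LW and 13 in TLR9agonist_LW. Its equal CPM therefore does not mean equal levels in the typical cell.

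Ligands of the EGF receptor drive keratinocyte growth and migration. Of 12 measured genes of the EGF family, its receptors and feedback genes 5 were higher and 0 lower (background 4.49% and 12.6%). Their median log2 ratio was 0.90. Areg (amphiregulin) stood at 172 CPM in WT_LW against 534 CPM in TLR9agonist_LW (log2 ratio 1.64, 95% interval 1.5 to 1.78) and was found in 13.2% and 47.1% of thinned members. Areg was also frequent in T cells (235 and 2292 CPM), in 12.5% and 39.6% of thinned cells, and in endothelial cells at 19.8 and 249 CPM. With the endothelial level taken off, the members' log2 ratio was 1.29 when mean UMIs per cell were subtracted and 0.91, under 2-fold, when CPM were subtracted, and T cells, whose level exceeded that of the members, give no level of free RNA for it. Tgfa was at 16.8 and 49.3 CPM (log2 ratio 1.56), Epgn at 72.9 and 141 CPM (0.95) and Hbegf at 191 and 289 CPM (0.60). The receptor Egfr was at 36.1 and 65.1 CPM (0.85) and Erbb2 at 35 and 20.9 CPM (-0.74). Errfi1 and Dusp6, feedback genes induced by this pathway, had log2 ratios of 1.29 and 1.31.

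A list of IL-17 receptors and genes that IL-17 induces in keratinocytes had 16 measured genes. Of these 9 were higher, Cxcl1 and Cxcl2 among them, and 0 lower (background 4.49% and 12.6%). Their median log2 ratio was 1.05. With the T cell level taken off only 8 of them had a value left, with a median of 2.17. Genes at or under the T cell level in a library drop out there, so the 2 medians rest on different genes and are not compared. Ccl20, the chemokine that attracts CCR6-bearing cells, stood at 41.2 CPM in WT_LW against 201 CPM in TLR9agonist_LW (log2 ratio 2.29, 95% interval 2.02 to 2.58), and was found in 2.63% and 18.7% of thinned members against at most 2.44% of T cells. Cxcl16, a membrane-bound chemokine, was at 56.1 and 153 CPM (log2 ratio 1.45). The neutrophil chemokines Cxcl1 (35.7 and 163 CPM) and Cxcl2 (101 and 207 CPM) had log2 ratios of 2.19 and 1.03, but the thinned shares, 11.2% and 20.4% for Cxcl1 and 19.7% and 26.4% for Cxcl2, lay under those of endothelial cells (25.4% and 78.8%, 26.3% and 49.7%), and the part of RNA from other cells in them was not tested. The receptor subunits Il17ra and Il17rc were at 9.84 and 15.6 CPM and at 112 and 69.3 CPM.

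Il17a itself was among the 12 genes with the highest ratios (9 and 457 UMIs, log2 ratio 4.05, 95% interval 3.11 to 5.19). Its thinned share in TLR9agonist_LW was 8.48%, next to 8.75% of endothelial cells and 49.2% of T cells, and 2 members held 127 and 83 of the 457 UMIs. The part of RNA from other cells in this level was not tested, so it is not given as expression by keratinocytes.

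In the IL-1 and IL-36 family 2 of 11 measured genes were higher and 2 lower (background 4.49% and 12.6%), with a median of -0.19. Il33, a nuclear alarmin, stood at 87.4 CPM in WT_LW against 501 CPM in TLR9agonist_LW (log2 ratio 2.52, 95% interval 2.33 to 2.71) and was found in 9.87% and 45.4% of thinned members. Il1rn, the IL-1 receptor antagonist, was at 69.9 and 254 CPM (log2 ratio 1.86). Il1f9 (IL-36 gamma) was at 102 and 139 CPM (log2 ratio 0.44), Il18 at 82.3 and 37.1 CPM (-1.15) and Il1f6 (IL-36 alpha) at 71.8 and 13.2 CPM (-2.44). The lower values of Il18 and Il1f6 rested on a few WT_LW cells, since without the top 3% their log2 ratios were 0.16 and 1.03.

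Interferon-induced genes did not form a higher group, with 1 of 17 measured genes higher and 4 lower (background 4.49% and 12.6%). Their median log2 ratio was -0.40 (0.06 under TMM). The lower genes Isg15 (144 and 76 UMIs), Bst2, Ifi35 and Stat2 were each found in a larger share of T cells than of members, and without the top 3% of cells Isg15 was at 0.47 and Bst2 at 0.40. Of 6 measured Toll-like receptor and adaptor genes 1 was higher and 2 lower (background 4.49% and 12.6%), all at low counts. Their median log2 ratio was -0.64. The receptors Tlr9 and Tlr7 had 0 UMIs in the members of both libraries, where the floor of 3 UMIs is 1.09 CPM in WT_LW and 0.357 CPM in TLR9agonist_LW. Levels near or under that floor could go unseen. The adaptor Myd88 was at 22.9 and 20.9 CPM (log2 ratio -0.13, -0.56 to 0.31).

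Among 26 measured proteases and protease inhibitors 3 were higher and 8 lower (background 4.49% and 12.6%). Their median log2 ratio was -0.42 (0.05 under TMM). The higher genes were inhibitors of the serpin B cluster and a membrane protease. Serpinb2, an inhibitor of plasminogen activators, stood at 223 CPM in WT_LW against 1543 CPM in TLR9agonist_LW (log2 ratio 2.79, 95% interval 2.68 to 2.91) and was found in 21.7% and 73.3% of thinned members, against 0.832% and 14% of T cells. Serpinb3a was at 119 and 420.5 CPM (log2 ratio 1.82) and the membrane protease St14 (matriptase) at 20.8 and 46.4 CPM (1.16).

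Kallikreins are proteases that cut the links between cells as they are shed. Klk8 was lower at 328 and 153 CPM (log2 ratio -1.10), Klk13 at 67.0 and 33.3 CPM (-1.01) and Klk5 at 61.9 and 6.06 CPM (-3.35). Klk7 had a log2 ratio of -0.44, and 0.56 without the top 3% of cells. Of Klk5, 51.2% of the WT_LW UMIs lay in the 2 cells that held most of Lor, and without these 2 cells the log2 ratio was -2.35 (-2.88 to -1.82). Spink5, their inhibitor, stood at 199.99 and 113 CPM (-0.83), and at 0.40 without the top 3% of cells. The stefin Csta1 was lower and widely expressed (1053 and 457 CPM, log2 ratio -1.20, 95% interval -1.27 to -1.13), with 62.5% and 39.4% of thinned members.

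Of 33 measured barrier lipid genes 4 were higher and 5 lower (background 4.49% and 12.6%), with a median of -0.06 (0.41 under TMM). The higher genes included Ugcg, which makes glucosylceramide (68.1 and 241 CPM, log2 ratio 1.82, 95% interval 1.6 to 2.04), and the sphingomyelin synthases Sgms1 (41.5 and 128 CPM, log2 ratio 1.62) and Sgms2 (5 and 101 UMIs). The lower genes were the alkaline ceramidase Acer1 (96.9 and 44.1 CPM, -1.14), the fatty acid transporter Slc27a4, Pnpla1 and Sdr9c7, both needed for the ceramides bound to the envelope, and the sphingomyelinase Smpd1, the last 4 at 38 to 82 UMIs in TLR9agonist_LW. The fatty acid elongase Elovl4 (384 and 284 CPM) and the lipid transporter Abca12 (105 and 122 CPM) had log2 ratios of -0.43 and 0.22.

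Metallothioneins, which bind zinc and copper, went different ways. Mt4, the form of stratified squamous epithelium, stood at 1919 CPM in WT_LW against 499 CPM in TLR9agonist_LW (log2 ratio -1.94, 95% interval -2.0 to -1.88) and was found in 66.4% and 27.4% of thinned members. The general forms Mt1 (485 and 1241 CPM, log2 ratio 1.36) and Mt2 (133 and 288 CPM, log2 ratio 1.11) were higher, but T cells also held more Mt1 in TLR9agonist_LW (45.3% against 18.1%).

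Further genes among the 12 with the highest ratios were Prr9, a proline-rich gene of the complex on chromosome 3 (22 and 2173 UMIs, log2 ratio 5.01, 95% interval 4.41 to 5.69), Fst, whose product follistatin binds activins (9 and 997 UMIs, log2 ratio 5.18, 95% interval 4.25 to 6.31), Slc6a14, an amino acid transporter (44 and 1972 UMIs, log2 ratio 3.87, 95% interval 3.44 to 4.34), Hs3st1, a heparan sulphate sulphotransferase (37 and 1633 UMIs, log2 ratio 3.85, 95% interval 3.38 to 4.36), and Ptgs2, the inducible cyclooxygenase (30 and 982 UMIs, log2 ratio 3.42, 95% interval 2.89 to 3.99). Slc6a14 was found in 1.97% and 33.4% of thinned members and Hs3st1 in 1.97% and 27.9%. Fst was found in 1.97% and 15.7%, and the top 3% of TLR9agonist_LW cells held 48.1% of its UMIs.

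Among the 12 with the lowest ratios, Phlda3, a target of p53, was found in 20.4% and 3.99% of thinned members (337 and 172 UMIs, log2 ratio -2.59, 95% interval -2.86 to -2.32) and Calm5, a calmodulin-like gene, in 20.4% and 5.49% (420 and 233 UMIs, log2 ratio -2.47, 95% interval -2.70 to -2.23). These were not carried by few WT_LW cells, since the top 3% held 16% and 36.7%. Slurp1 (437 and 205 UMIs), Stfa2 (425 and 171 UMIs) and Tslp (205 and 39 UMIs) were, with 91.1%, 74.8% and 86.3% of their WT_LW UMIs in those cells, and log2 ratios of -0.95, -2.95 and -2.45 without them, against -2.71, -2.93 and -4.01 with them. Fabp4 (334 and 138 UMIs) is abundant in endothelial cells (2343 and 2052 CPM), whose genes were also lower in the TLR9agonist_LW members.

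Genes of the basal layer and of other states were less abundant. The counts in this paragraph stand against 4.49% of all genes higher and 12.6% lower. Of 13 measured basal and integrin genes 2 were higher and 3 lower, with a median of 0.0062, Krt15 being lowest (36.1 and 4.87 CPM, log2 ratio -2.89). In the Notch pathway, which drives the exit from the basal layer, 1 of 12 genes was higher and 1 lower (median -0.34), the lower one being the target Nrarp at 70.3 and 24.5 CPM (log2 ratio -1.52, 95% interval -1.81 to -1.23). Hes1, a further Notch target, had a log2 ratio of -0.95, and Notch1 and Jag1 ratios of -0.80 and 0.24. Of 8 measured follicle and stem cell genes 1 was higher and 3 lower (median -0.74), with Sox9 at 42.6 and 86.9 CPM (1.03) and Wnt4 at 140.2 and 61.1 CPM (-1.20). Of 11 retinoid genes 3 were higher and 0 lower, the 3 at low counts, while the median was -0.68, and the carrier Crabp2 had a log2 ratio of -0.82. In the cell cycle list, where the gate used Mki67 and Top2a, 0 of 7 genes were higher and 1 lower (median -0.62), and Cdkn1a, the inhibitor p21, was at 295 and 558 CPM (0.92).

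Early response genes that tissue dissociation can also induce were checked on the same scale. Of 25 measured genes 7 were higher and 1 lower (background 4.49% and 12.6%), with a median of 0.15. The heat shock genes Hspa1a (231 and 706 CPM, log2 ratio 1.61), Hspa1b (1.35) and Dnajb1 (1.78) were higher and 74.2% of TLR9agonist_LW T cells held Hspa1a against 44.8% in WT_LW. Fos was lower (803 and 319 CPM, log2 ratio -1.33, 95% interval -1.41 to -1.25), while Jun and Junb had log2 ratios of -0.16 and 0.12 and the AP-1 gene Fosl1 one of 1.17. The part of handling in these values was not tested.

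Members were split by keratin share into 54, 43 and 55 cells of WT_LW and 156, 108 and 137 cells of TLR9agonist_LW with shares under 0.8, from 0.8 to 0.95 and over 0.95, the last holding least basal keratin. Genes that the gate did not use followed this share. Calm4 was higher at larger shares, from 6137 to 13537 CPM in WT_LW and from 4087 to 6068 CPM in TLR9agonist_LW, and Krt6b went down from 3522 to 1163 CPM and from 3184 to 1239 CPM. The Sprr difference was present in each bin, with log2 ratios of 2.41, 3.48 and 2.77 for Sprr2d and 2.70, 3.13 and 3.41 for Sprr1a. S100a9 was higher in each bin (1.97, 1.33 and 2.76) and went down with the keratin share in TLR9agonist_LW, from 11745 to 7210.5 CPM. Mt4 was lower in each bin (-2.91, -2.12 and -1.35). Lor and Flg were at 8.77 and 17.5 CPM in the lowest WT_LW bin, and each of the 2 cells with most Lor lay in another of the upper bins, which stood at 2902 and 1598 CPM of Lor. The median depth of the middle bin differed most between libraries, 4596 against 18258 UMIs.

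**Figure D4:**
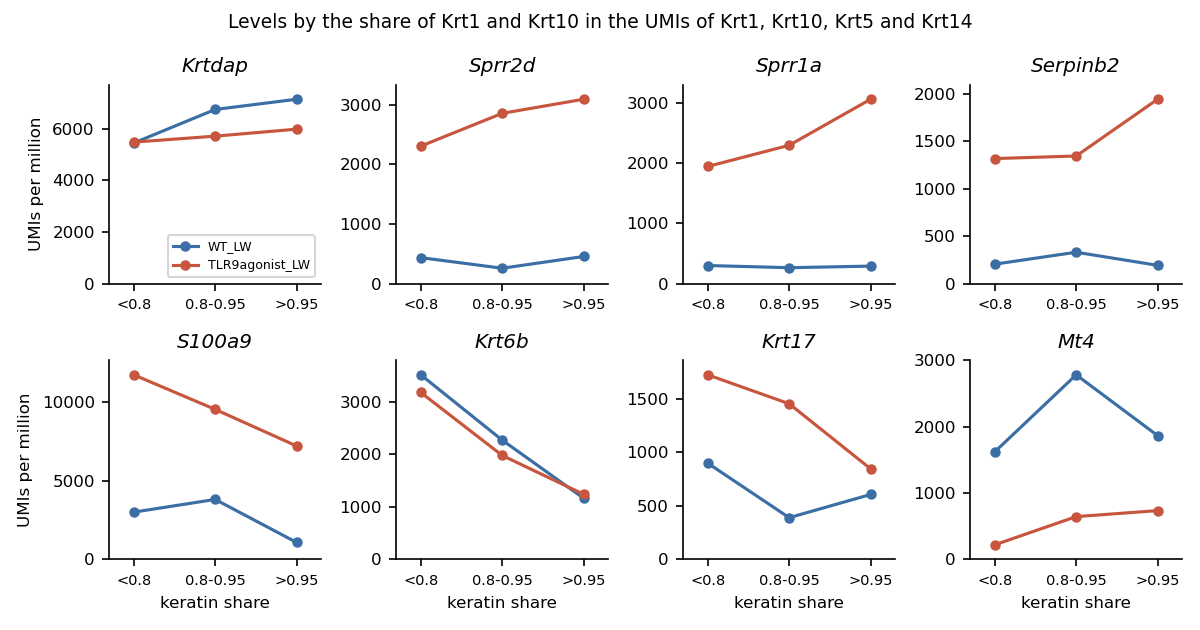
CPM of 8 genes in 3 bins of keratin share (linear axis from 0, a scale of its own for each gene), 1 point per library and bin, joined by lines. The lines of Sprr2d, Sprr1a, Serpinb2 and S100a9 for TLR9agonist_LW lie above those of WT_LW in each bin, that of Mt4 lies below, and those of Krt6b run together and go down.

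The same libraries hold basal keratinocytes, chosen with the same exclusions but with Krt5 and Krt14 at 30 UMIs or more and above Krt1 and Krt10 (108 and 368 cells). The suprabasal members held more Krt10 than the basal cells by construction. The Sprr genes, S100a9 and Serpinb2 were higher in TLR9agonist_LW in the basal cells too, with log2 ratios of 5.09 for Sprr2d (34.0 and 1154 CPM), 4.23 for Sprr1a, 3.59 for S100a9 (706 and 8511 CPM) and 2.18 for Serpinb2. Sprr2d was 3.59 log2 units higher in suprabasal than in basal cells of WT_LW and 1.23 higher in TLR9agonist_LW, and S100a9 1.79 and 0.18. Prdm1, Ehf, Grhl3 and Mt4 had basal log2 ratios of 2.33, 1.28, 1.87 and -1.94, on the same side as in the members. Calm4 (1.19), Csta1 (0.60) and Flg (3.32, from 1 and 41 UMIs) were on the opposite side. The difference between the 2 gates was not tested.

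**Figure D5:**
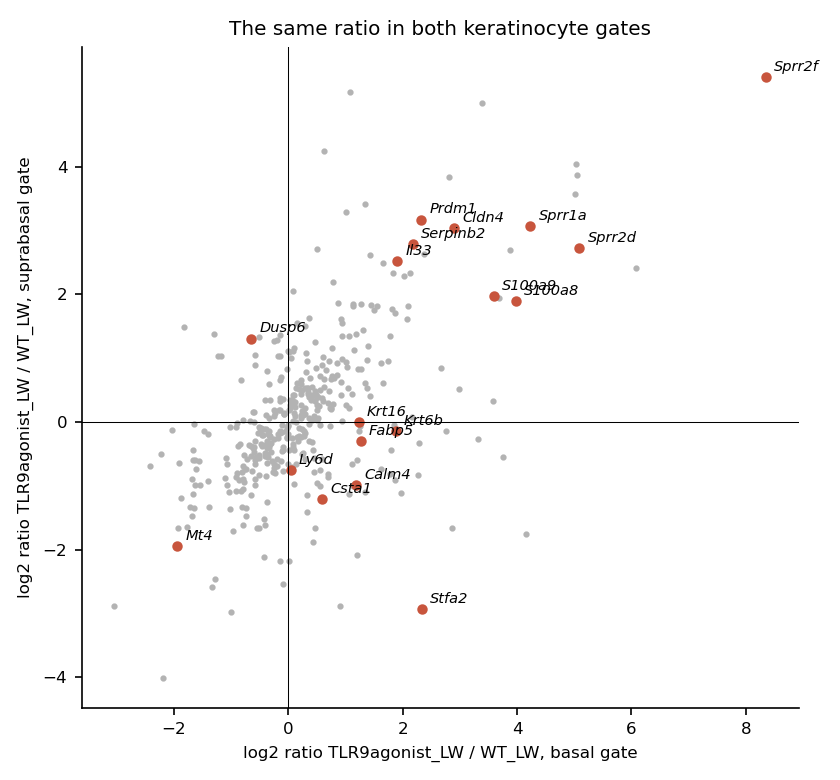
Log2 ratio in basal keratinocytes (horizontal axis) against that in the suprabasal members (vertical axis), 1 point per gene of the lists and named genes with at least 50 UMIs in each gate, some of them labelled in red. Most points scatter around the origin, Sprr1a, Sprr2d and Sprr2f lie at the upper right, Mt4 at the lower left, and Calm4, Csta1 and Stfa2 at the lower right.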

How the data were processed

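For each of the 2 libraries, WT_LW and TLR9agonist_LW, the deposited file holds unnormalized UMI counts by gene and barcode. The authors made them with fastp and Cell Ranger 4.0.0, and only barcodes called as cells are in the files. Replicates were pooled before sequencing. The submitters' processing notes name the build mm9. Gene order and biotypes came from GENCODE vM21, which holds 98.7% of the 27998 gene identifiers, and promoters from RefSeq (GRCm38.p6), which matched by symbol. Positions are those of the reference tables and not of the deposited files. The study's text and methods give different numbers of pooled mice, and the control is PBS in the labels.

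Cells were kept with at least 2000 UMIs and at most 15% mitochondrial UMIs, and members were chosen by the gate described above. UMI sums over the members of a library were scaled to CPM, with exact Poisson intervals. Intervals of ratios are exact and conditional on the total, and those of shares are Clopper-Pearson intervals, all at 95%. There is no p-value and no test, since each group has 1 library. The method was tested on simulated data. Doublets were kept. Scrublet's own threshold marked 1 barcode in each library and so had not worked, and leaving out the highest scores (7 of 152 and 16 of 401 members) was an alternative. The libraries shared 47 barcodes, of which 0 were members.

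The members and the gene lists were chosen with earlier results of these data known, and support nothing by themselves. Named genes were the gate genes and markers, 12 at each end of the ranking of ratios by the interval end nearest 0 among protein-coding genes with at least 200 UMIs, list members (every member of lists of up to 12 measured genes, otherwise the 4 at each end and those a sentence needs), genes the study names for keratinocytes, and the 15 with the highest CPM. A few genes these rules name are not reported here, though list counts and medians include them. Lists used genes with at least 50 UMIs. Alternatives were a stricter cell filter, a thinned gate, a gate sum of 60, other scalings and weights, and other minimum counts. Leaving out the 3% of cells highest in each gene, subtracting the T cell level and leaving out members with over 3 UMIs on lists of other cells were chosen after seeing the data, as was the level in endothelial cells. The software was scanpy 1.11.5, pandas 2.3.3, numpy 2.4.6, scipy 1.17.1 and matplotlib 3.10.9 in Python 3.11.15, and edgeR 4.0.16 in R 4.3.3 for the TMM factors alone.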

Additional observations from a re-analysis of the deposited data

Results flagged for a closer look

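Between the suprabasal members and the basal keratinocytes of the same libraries, 15 of 246 named genes had log2 ratios of TLR9agonist_LW to WT_LW with opposite signs, each with its counting interval wholly on 1 side of 0 and beyond 0.5 in size. Among genes with at least 50 UMIs in each gate these were 12 of 217 named genes (5.53%) and 53 of 7591 genes in all (0.698%), the named genes having been chosen in part for large ratios. The difference between the gates was not tested, since each gate has 1 library per group, and the genes of the gate itself were left out.

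Lower in suprabasal and higher in basal cells of TLR9agonist_LW were 14 of the 15. Calm4 was at -0.99 in suprabasal and 1.19 in basal cells, and Calml3, a calmodulin-like protein of epithelia, at -1.01 and 0.56. Csta1 was at -1.20 and 0.60, Dsc1 at -0.65 and 1.12, Crabp2 at -0.82 and 1.78, and Il1f5 (the IL-36 receptor antagonist) at -0.59 and 1.20. Flg was at -5.56 and 3.32, from 1 and 41 UMIs in the basal cells, Stfa2 at -2.93 and 2.33, and Sprr2b at -1.76 and 4.16, from 2 and 147 basal UMIs. Il1f6 was at -2.44 and Sdr9c7 at -1.69. Both had 0 UMIs in the WT_LW basal cells. With the floor of 3 counts put in there, their basal log2 ratios were 1.66 and 0.70, which are no lower bounds. Without the 3% of cells highest in the gene the suprabasal log2 ratios of Sprr2b and Il1f6 were 0.57 and 1.03, no longer opposite to the basal ones, and that of Il1f5 was -0.24.

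The endothelial genes Fabp4 (-2.89 in suprabasal and 0.91 in basal cells), Cdh5 (-2.09 and 1.20) and Emcn (-1.11 and 1.96) were also listed. Endothelial genes summed to 84.5 CPM in the WT_LW and 28.3 CPM in the TLR9agonist_LW members, and 1 WT_LW member held 141 of the 232 UMIs. Higher in suprabasal and lower in basal cells of TLR9agonist_LW was Dusp6, a phosphatase of the MAP kinase pathway (1.31 and -0.65).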

How the results depend on the processing

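No paired analysis was possible because each group has 1 library and the labels give no replicate numbers that groups share. No replicate could be left out for the same reason. Limits to 3 UMIs on every list of other cells left 2 and 0 members, so that setting without the fibroblast and myeloid lists (139 and 379 cells) was used. Of 128 named genes past 2-fold, 124 to 128 kept their direction under the settings that scored all of them or 126 or 127 of them, 117 of 122 did so without the 3% of cells highest in the gene, and 84 of 84 did so with the T cell level subtracted. The subtraction left no value for genes at or under the T cell level in a library, so those 84 lay above it in both. TMM and the median gene at 0 add 0.47 and 0.26 to each log2 ratio, so they could not turn any gene past 2-fold. All settings reused the same libraries and do not replace replicates. With the gate read on thinned cells the share in WT_LW was 1.28%.

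The 234 higher and 255 lower genes became 481 and 51 under TMM, 500 and 402 with cells thinned, 416 and 514 with the T cell level subtracted, 359 and 1006 with genes of at least 50 UMIs, 2317 and 3951 with genes of at least 1 UMI, and 147 and 81 when the whole interval had to lie beyond 2-fold. The higher genes were 414 with equal weight per cell and the lower genes 94 with the median gene at 0.

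The list medians that moved under the median gene at 0, TMM, equal weight per cell and thinning were, in this order, -0.044, 0.16, -0.12 and -0.18 for spinous genes, 0.21, 0.41, 0.25 and 0.34 for barrier lipids, and 0.74, 0.94, 0.68 and 0.70 for transcription factors. Under TMM, equal weight and thinning the EGF list was at 1.37, 1.57 and 1.37. TMM put proteases at 0.049, glycolysis at 0.96, actin genes at 0.32 and translation at 0.61. Thinning put the Notch list at 0.29 and equal weight put junctions at 0.52. Without the top 3% of cells the Sprr list was at 3.78. With the T cell level subtracted the interferon list was at -1.52 (4 genes), actin genes at 0.61 (9 genes) and the cell cycle list at 1.24 (1 gene).

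Among the named genes past 2-fold, the direction of the following turned. Genes that differed by less, such as Spink5 and Klk7 above, are not listed. With the gate read on thinned cells Bst2 was at 0.58, Cdh5 at 0.088, Isg15 at 0.042 and Vim at 0.14. Without the top 3% of cells Bst2 was at 0.40, Il18 at 0.16, Il1f6 at 1.03, Isg15 at 0.47 and Sprr2b at 0.57. Crabp1 was at -0.0043 with equal weight per cell and -0.59 with cells thinned, and Pnpla1 at 0.41 with cells thinned. The cause of these moves was not tested. The depth of the WT_LW members, 2745163 UMIs in 152 cells, limits low genes, where a floor of 3 UMIs is 1.09 CPM.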

Other observations

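Of 24 measured genes of glycolysis and hypoxia 5 were higher and 0 lower (background 4.49% and 12.6%), with a median log2 ratio of 0.50. Ndrg1, a hypoxia-induced gene, was at 93.3 CPM in WT_LW against 341 CPM in TLR9agonist_LW (log2 ratio 1.87), the hexokinase Hk2 at 106 and 274 CPM (1.37) and the glucose transporter Slc2a1 at 43.7 and 105 CPM (1.26). The vasodilator peptide gene Adm had 28 and 432 UMIs (2.33) and the lactate carrier Slc16a3 20 and 125 UMIs (1.03). Gapdh was at 1132 and 1487 CPM (0.39) and Ldha at 541 and 397 CPM (-0.45).

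Of 23 measured genes of oxidative stress and detoxification 4 were higher and 2 lower (background 4.49% and 12.6%), with a median of 0.10. Txnrd1, thioredoxin reductase, had 32 and 409 UMIs (2.06) and Hmox1, haem oxygenase, 83 and 610 UMIs (1.26). Glutathione peroxidase Gpx1 (725 and 553 CPM) and peroxiredoxin Prdx1 (784 and 735 CPM) differed by less than 2-fold.

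Of 20 measured actin and migration genes 0 were higher and 2 lower (background 4.49% and 12.6%). Their median was -0.14, which TMM puts at 0.32. Gamma-actin Actg1 was at 2538 and 5055 CPM (0.99). Vim, at 426 and 139.6 CPM (-1.61), was found in 93.0% and 85.4% of T cells and only 43.4% and 23.4% of members, and the part of RNA from other cells in it was not tested. Of 23 translation genes 0 were higher and 0 lower (background 4.49% and 12.6%), with a median of 0.15.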
